A study of Mus musculus with 6 samples.

Results

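Tetraspanins are small membrane proteins with 4 membrane-spanning segments, and their genes are described here in 4T1 cells, a line from a mouse mammary carcinoma, exposed to the kinase inhibitor TKI258. The members were all genes whose symbol begins with Tspan and a number, together with Cd9, Cd37, Cd53, Cd63, Cd81, Cd82, Cd151, Upk1a, Upk1b, Prph2 and Rom1. They came to 30 of the 19938 genes that the arrays measured through probe sets with a single gene symbol. The brightest probe set over all 6 arrays was to stand for each gene, but each of the 30 members had 1 such probe set, so signal chose nothing among them. The family was picked with the difference in Cd53 already known, and values of Cd53 are therefore given as a description without a test.

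Both groups were 4T1 cells in medium with fetal calf serum. The TKI258 group (3 arrays) received 500 nM TKI258 for 16 h, and the DMSO group (3 arrays) received the vehicle alone for 16 h. Each array held RNA from its own dish, and 4T1 is 1 cell line, so p-values measure the spread between dishes of this line. TKI258, also called dovitinib, blocks the kinase activity of FGF, VEGF and PDGF receptors, and the comparison asks which transcripts differ when it is present. Values are log2 signals, on which a difference of 1 is a doubling, and the level of a probe set cannot be set against that of another.

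A tetraspanin binds other membrane proteins through its large outer loop, among them integrins, immunoglobulin-like proteins, growth factor precursors and proteases, and gathers them into patches of membrane. Members differ in where they are used. Cd9, Cd63, Cd81, Cd82 and Cd151 are found on many cell types, epithelium included, Cd37 and Cd53 mainly on leukocytes, the uroplakins on the bladder lining, and peripherin-2 (Prph2) with Rom1 in photoreceptor discs. In carcinoma cells the family is best known for work on adhesion, migration and the release of extracellular vesicles, and Cd82 is known as a metastasis suppressor.

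Markers of epithelium, fibroblasts and endothelium were read on the same arrays. The keratin gene Krt8 averaged 11.80 in TKI258 and 11.92 in DMSO cells, and Epcam between 7.47 and 7.66 in TKI258 and between 7.57 and 7.59 in DMSO cells. Krt8 and Epcam did not pass in limma. Of 8 epithelial markers 4 rose and 2 fell, with Cdh1 at 1.09, Krt19 at 0.94 and Krt18 at -0.50. Thus 75% were called, against 27.0% of all genes and 44.2% of those with a mean above the median of all probe sets. Among the 4, Cldn3 rose by 0.24 (adjusted p = 0.0274 in limma) and passed in 4 of 15 alternatives. Its call was lost without TKI258 replicate 1, TKI258 replicate 3 or any single DMSO replicate, at adjusted p of 0.0549 to 0.104. Of 8 fibroblast markers Dcn and Pdgfra rose (25% called), with log2 changes that correspond to 4.04-fold and 2.83-fold, and of 6 endothelial markers Eng rose by 0.43 (16.7% called). Pdgfra averaged 9.83 in TKI258 and 8.33 in DMSO cells. Dcn averaged 5.79 ± 0.52 in TKI258 and 3.77 ± 0.17 in DMSO cells (SD, n = 3 each). Its DMSO mean was under the median signal, where a log2 change is measured less well. Under the median signal in both groups were 0 of the 8 epithelial, 1 of the 8 fibroblast and 5 of the 6 endothelial markers. Array medians were 4.97 to 5.04 over all probe sets. Arrays of the same group correlated at 0.997 to 0.998 over all genes, and arrays of different groups at 0.988 to 0.990.

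After TKI258, 7 of the 29 tetraspanin genes other than Cd53 rose, 1 fell and 21 did not pass the test, which was limma over all 19938 genes with a Benjamini-Hochberg adjusted p below 0.05. The genes that rose were Tspan15, Tspan13, Cd81, Tspan17, Tspan9, Tspan2 and Cd82, with log2 changes of 0.27 to 0.78, and the gene that fell was Cd9. Those 8 are 27.6% of the 29, against 27.0% of all genes. Calls upward were 14.4% of all genes and calls downward 12.6%. The share of tetraspanin genes that passed was thus near that of the whole table. The median log2 change was 0.07 over these 29 and 0.01 over all genes, and the median size of change was 0.13 and 0.12.

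In 13 of the 29 (44.8%) the TKI258 and DMSO arrays did not overlap, against 40.2% of all genes. All 8 members called were among the 18 with a mean signal above the median of all probe sets, and 0 of the 11 dimmer members passed in limma, where 2 had an unadjusted p below 0.05. Over all genes, 44.2% of the brighter and 4.85% of the dimmer genes passed. The arrays carry no detection calls, so none of the dim members can be called absent. In bulk RNA from a dish, fewer cells that carry a transcript and less of it per cell cannot be told apart.

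**Figure D1:**
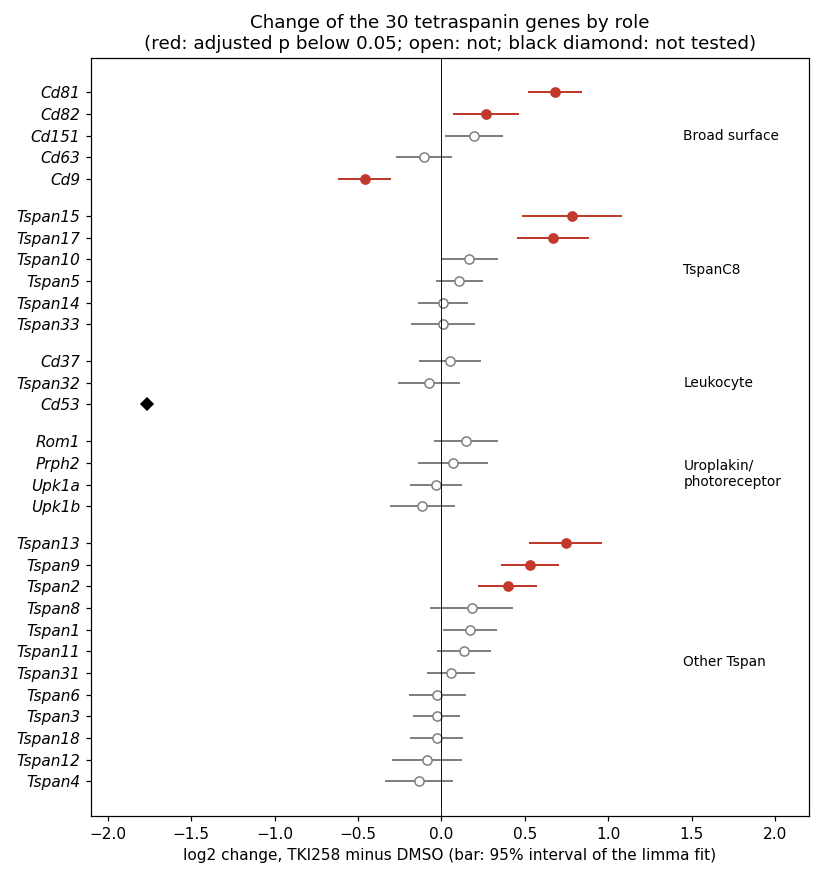
Log2 change (TKI258 minus DMSO, horizontal axis) of each of the 30 tetraspanin genes, grouped by role, with the 95% interval of the limma fit as a bar. Red points passed an adjusted p of 0.05, open points did not, and the black diamond is Cd53, which was not tested. Cd53 lies at -1.76, and the remaining points lie between -0.46 for Cd9 and 0.78 for Tspan15.

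Promoter windows are shown for Cd53 and Cd9, both lower in TKI258 cells, and for 3 of the genes that rose, Cd81, Tspan15 and Tspan17. Windows of the other genes that rose, Tspan13 among them, are not shown. The first listed window of each gene was taken, and any other start of that gene was passed over. Each window runs from 250 bases before to 50 bases after a transcript start, 5′ to 3′, from RefSeq on GRCm38.p6. For Cd53, Cd9 and Cd81 that start is the outer end of the listed gene, but for Tspan15 it lies 58 bases and for Tspan17 303 bases inside it, so the whole Tspan17 window is within the gene. The windows are chr3:106790100-106790399 on the minus strand for Cd53, chr6:125494711-125495010 on the minus strand for Cd9 and chr7:143052500-143052799 on the plus strand for Cd81. Tspan15 has chr10:62231169-62231468 on the minus strand and Tspan17 chr13:54789155-54789454 on the plus strand. Capitals mark every match, on either strand, to the words GGAAGT (core of ETS factor sites), TGANTCA (AP-1), GTAAACA (FOXO) and GGGCGG (GC box), and 0 bases lay in matches of more than 1 word.
Cd53: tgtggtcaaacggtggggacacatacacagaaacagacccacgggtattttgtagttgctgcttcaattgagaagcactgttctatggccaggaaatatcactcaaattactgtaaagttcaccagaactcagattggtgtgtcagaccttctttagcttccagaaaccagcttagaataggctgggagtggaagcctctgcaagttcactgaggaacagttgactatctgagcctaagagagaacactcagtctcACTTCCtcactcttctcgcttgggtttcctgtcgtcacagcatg
Cd9: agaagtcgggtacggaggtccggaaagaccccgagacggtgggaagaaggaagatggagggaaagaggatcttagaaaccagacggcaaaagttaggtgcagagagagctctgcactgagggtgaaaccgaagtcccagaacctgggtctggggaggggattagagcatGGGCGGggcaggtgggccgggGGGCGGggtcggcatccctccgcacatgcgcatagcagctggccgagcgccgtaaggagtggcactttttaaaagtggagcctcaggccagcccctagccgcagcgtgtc
Cd81: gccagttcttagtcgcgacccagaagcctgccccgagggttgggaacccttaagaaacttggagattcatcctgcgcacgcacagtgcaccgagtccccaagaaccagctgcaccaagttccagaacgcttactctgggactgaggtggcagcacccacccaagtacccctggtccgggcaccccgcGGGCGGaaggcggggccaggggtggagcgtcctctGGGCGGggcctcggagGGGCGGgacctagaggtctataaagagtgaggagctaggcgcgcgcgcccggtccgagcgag
Tspan15: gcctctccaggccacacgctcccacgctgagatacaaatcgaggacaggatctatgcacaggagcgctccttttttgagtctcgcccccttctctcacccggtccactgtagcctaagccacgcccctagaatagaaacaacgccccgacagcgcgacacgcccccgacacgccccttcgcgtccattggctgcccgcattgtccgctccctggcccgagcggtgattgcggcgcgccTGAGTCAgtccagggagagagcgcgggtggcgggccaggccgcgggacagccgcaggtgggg
Tspan17: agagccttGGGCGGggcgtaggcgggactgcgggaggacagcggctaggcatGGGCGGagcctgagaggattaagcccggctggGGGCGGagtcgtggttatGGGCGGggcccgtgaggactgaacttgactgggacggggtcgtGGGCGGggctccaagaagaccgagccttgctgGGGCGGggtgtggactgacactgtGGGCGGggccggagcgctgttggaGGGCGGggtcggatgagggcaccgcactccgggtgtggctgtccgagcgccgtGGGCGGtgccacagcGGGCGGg

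The Cd53 window held 1 ETS core, as ACTTCC on the strand shown, and 0 GC boxes, and its share of G and C was 46.3%. The Cd9 window held 2 GC boxes, the Cd81 window 3 and the Tspan17 window 10, with 61.3%, 65.7% and 72.0% G and C. The Tspan15 window held 1 AP-1 word and 66.3% G and C. Among 32851 windows of all genes, 23.8% held the ETS core, 7.81% the AP-1 word, 3.65% the FOXO word and 35.7% a GC box. Windows were found for 28 of the 30 members, 38 windows in all, of which 9 held the ETS core, 2 the AP-1 word, 1 the FOXO word and 16 a GC box. Such matches describe letters and say nothing of binding in these cells.

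Cd53, a tetraspanin of leukocytes, had log2 signals of 4.74, 4.97 and 4.67 in TKI258 cells, against 6.43, 6.59 and 6.65 in DMSO cells. Every TKI258 array was below every DMSO array by more than the spread within either group. The means were 4.79 ± 0.16 in TKI258 and 6.56 ± 0.11 in DMSO cells (SD, n = 3 each), a log2 change of -1.76 (SE 0.09) or 3.40-fold lower. This difference is larger in size than those of 99.7% of all genes. The TKI258 mean, though not the DMSO mean, was under the median signal of the arrays, a range in which a log2 change is measured less well. The change was between -1.85 and -1.70 over the 15 alternative settings.

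The other leukocyte tetraspanins did not pass. Cd37, which is most studied in B cells, had 5.02, 4.91 and 4.85 in TKI258 and 4.76, 4.90 and 4.98 in DMSO cells, and its groups overlapped (log2 change 0.05, 95% interval -0.13 to 0.23). Tspan32, known from T cells and platelets, had a log2 change of -0.08 with an interval of -0.25 to 0.10. Both genes were under the median signal in both groups.

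Leukocyte markers beside Cd53 gave these values. Of 11 pan-leukocyte markers, Arhgdib and Lcp1 rose by 0.26 and 0.24, the integrin beta 2 gene Itgb2 fell by 0.42, and 8 did not pass, so that 27.3% were called, against 27.0% of all genes. Both Arhgdib and Lcp1 lost their calls when single arrays were left out, Arhgdib at an adjusted p of 0.0608 without DMSO replicate 2 and Lcp1 at 0.0675 to 0.128 without TKI258 replicate 2, TKI258 replicate 3, DMSO replicate 2 or DMSO replicate 3. The defining leukocyte gene Ptprc, which encodes CD45, had 3.68, 3.68 and 3.84 in TKI258 and 3.72, 3.81 and 3.74 in DMSO cells, below the median of all probe sets on each array. The mean over the 11 markers was 4.98 to 5.09 on the TKI258 arrays and 4.95 to 4.997 on the DMSO arrays. Of 11 macrophage markers Cd68 and Cd14 rose by 0.82 and 0.74, Mrc1 and Fcer1g fell by 0.63 and 0.33, and 7 did not pass (36.4% called), with means of 4.32 to 4.38 in TKI258 and 4.29 to 4.31 in DMSO cells. Of 6 lymphocyte markers 0 passed in limma, and 0 had an unadjusted p below 0.05. Of these markers 7 of 11 pan-leukocyte, 9 of 11 macrophage and 6 of 6 lymphocyte genes were under the median signal in both groups. Over all genes, 4.85% of the dimmer ones passed. The part of other cells in the Cd53 difference was not tested.

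Among the broadly expressed surface tetraspanins, Cd9 fell and Cd81 and Cd82 rose, while Cd151 and Cd63 did not pass. Cd9, which associates with integrins and with the precursor of HB-EGF, had 11.18, 11.03 and 11.08 in TKI258 cells, against 11.50, 11.58 and 11.59 in DMSO cells. All TKI258 arrays were lower. The log2 change was -0.46 (SE 0.07, adjusted p = 0.000900), or 1.38-fold lower. Limma's test against a fold of 1.2 gave an adjusted p of 0.0815 for Cd9, so a change larger than that was not called.

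Cd81, which forms complexes with Cd9 and with the same immunoglobulin-like partners, went the other way. It had 11.50, 11.45 and 11.57 in TKI258 cells, against 10.80, 10.76 and 10.91 in DMSO cells, with no overlap. Its log2 change was 0.68 (SE 0.07, adjusted p = 0.000104), a fold of 1.602, and it passed in each of the 15 alternatives. Taken within each array, the difference of Cd81 and Cd9 shifted by 1.14 on the log2 scale, and the groups did not overlap (SD 0.09 in TKI258 and 0.07 in DMSO cells, n = 3 each). An exact two-sided permutation test gave p = 0.1, the smallest that 3 arrays against 3 allow, and the adjusted p over the 6 pairs compared here was also 0.1. These pairs were chosen after their values were seen.

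Cd82, the metastasis suppressor also called KAI1, had 10.89, 10.64 and 10.84 in TKI258 cells, against 10.57, 10.42 and 10.58 in DMSO cells. The lowest TKI258 array exceeded the highest DMSO array by little. The log2 change was 0.27 (SE 0.08, adjusted p = 0.0450). That call was lost without TKI258 replicate 1, TKI258 replicate 3, DMSO replicate 1, DMSO replicate 2 or DMSO replicate 3, at adjusted p of 0.0710 to 0.161, and with the arrays centred on their medians (adjusted p = 0.0846). It passed in 6 of 15 alternatives.

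Cd151, the partner of the laminin-binding integrins, had 10.20, 10.13 and 10.31 in TKI258 and 9.94, 10.02 and 10.10 in DMSO cells. Its groups did not overlap, yet the log2 change of 0.19 (SE 0.07, 95% interval 0.03 to 0.36) missed the threshold at an adjusted p of 0.0895. It passed in 3 of 15 alternatives, among them renewed quantile normalization (adjusted p = 0.0364). Cd63, a tetraspanin of late endosomes and lysosomes that marks extracellular vesicles, had 9.84, 9.91 and 9.75 in TKI258 and 10.02, 9.87 and 9.92 in DMSO cells. These overlapped, and the log2 change was -0.11 with an interval of -0.27 to 0.06.

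**Figure D2:**
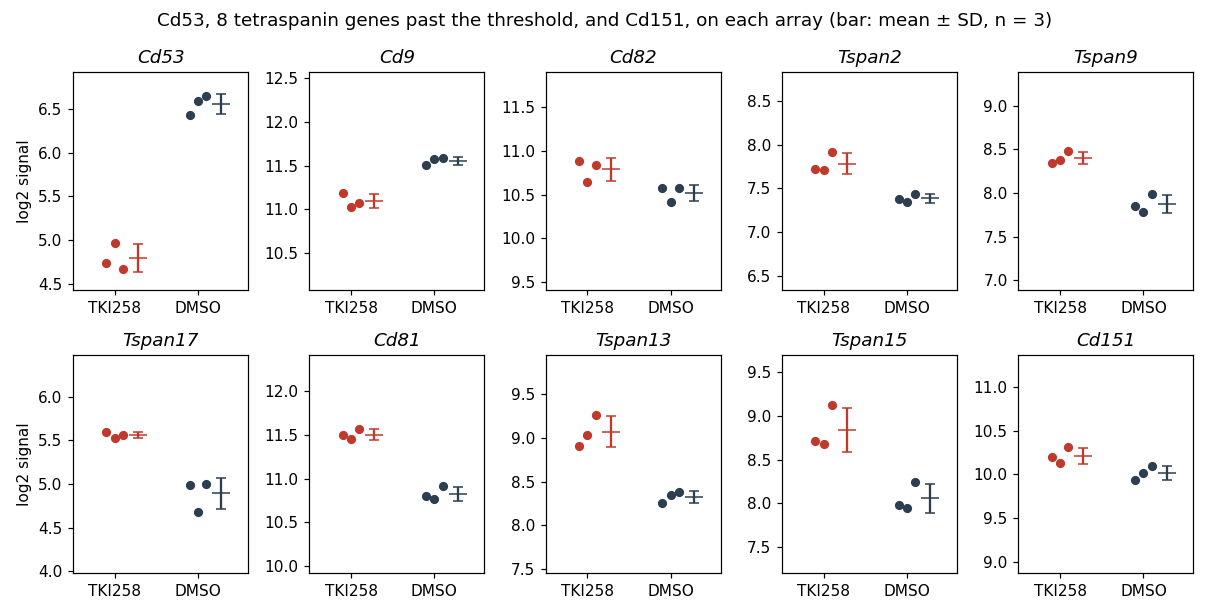
Log2 signal (vertical axes, each spanning 2.5 units) on each TKI258 and DMSO array, with the mean ± SD of 3 arrays beside the points. The genes are the 8 tetraspanin genes that passed the threshold, Cd151, and Cd53, which was not tested. The groups are apart in all 10 panels, widely in Cd53 and by the least in Cd82 and Cd151.

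The TspanC8 group, whose 6 members (Tspan5, Tspan10, Tspan14, Tspan15, Tspan17 and Tspan33) bind the membrane protease ADAM10 and carry it to the cell surface, split into 2 that rose and 4 that did not pass. Over all genes 14.4% rose and 27.0% were called in either direction, so 2 of 6 is not set apart from the whole table. Tspan15 had 8.71, 8.68 and 9.13 in TKI258 cells, against 7.98, 7.94 and 8.25 in DMSO cells. The third array of each group was the highest, and the groups stayed apart. The log2 change was 0.78 (SE 0.13, adjusted p = 0.00168), a fold of 1.72 and the largest rise in the family. Over the 15 alternatives its adjusted p ran from 9.01e-05 to 0.0499.

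Tspan17 had 5.59, 5.52 and 5.56 in TKI258 cells, against 4.99, 4.68 and 5.004 in DMSO cells. The TKI258 arrays were close together and all higher. The log2 change was 0.67 (SE 0.09, adjusted p = 0.000586), a fold of 1.59, though the DMSO mean of 4.89 was under the median signal of the arrays.

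The remaining TspanC8 genes did not pass. Tspan14, a widely expressed member, had 9.35, 9.32 and 9.42 in TKI258 and 9.34, 9.33 and 9.39 in DMSO cells, and its 95% interval ran from -0.13 to 0.15. Tspan5 had a log2 change of 0.11 and Tspan10 of 0.17, each with groups that did not overlap, at adjusted p of 0.244 and 0.127 in limma. Tspan33 had a log2 change of 0.01. The difference of Tspan15 and Tspan14 within arrays shifted by 0.77 (SD 0.20 in TKI258 and 0.13 in DMSO cells, n = 3 each), without overlap, at the smallest exact permutation p of 0.1. Tspan14 itself changed by 0.01, so this difference largely restates the change of Tspan15. This pair too was chosen after its values were seen.

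The gene of the protease also rose. Adam10 had 10.39, 10.35 and 10.29 in TKI258 cells, against 9.71, 9.70 and 9.62 in DMSO cells, a log2 change of 0.67 (SE 0.06, adjusted p = 7.31e-05). In the list of Adam10 with its relative Adam17 and 7 proteins that these proteases cleave, 6 of 9 genes rose, 1 fell and 2 did not pass (77.8% called, against 27.0% of all genes and 44.2% of the brighter ones), with a median log2 change of 0.53. Cdh1, the E-cadherin gene, rose by 1.09, the amyloid precursor gene App by 0.70 (adjusted p = 5.09e-05) and the receptor gene Notch1 by 1.19 (adjusted p = 7.13e-05). Notch2 and the prion protein gene Prnp rose by 0.53 and 0.45. Adam17 fell by 0.22 (adjusted p = 0.0258), and this call was lost without TKI258 replicate 2, TKI258 replicate 3 or any single DMSO replicate, at adjusted p of 0.0565 to 0.0808. It passed in 7 of 15 alternatives.

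Of the 12 Tspan genes outside these groups, 3 rose and 9 did not pass, where 14.4% of all genes rose and 27.0% were called either way. Tspan13 had 8.91, 9.04 and 9.26 in TKI258 cells, against 8.25, 8.34 and 8.39 in DMSO cells. The groups were well apart, with a log2 change of 0.74 (SE 0.09, adjusted p = 0.000353) and a fold of 1.67. Tspan9, known from platelets, had 8.35, 8.38 and 8.48 in TKI258 cells, against 7.85, 7.78 and 7.98 in DMSO cells. Its arrays did not overlap, and it rose by 0.53 (SE 0.08, adjusted p = 0.000700). Tspan2, which is abundant in myelinating oligodendrocytes, had 7.72, 7.70 and 7.92 in TKI258 cells, against 7.37, 7.34 and 7.44 in DMSO cells. It also stood apart, with a rise of 0.40 (SE 0.08, adjusted p = 0.00407), which limma's test against a fold of 1.2 did not call (adjusted p = 0.391).

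Of the 9 that did not pass, Tspan4, Tspan12, Tspan18, Tspan3 and Tspan6 had log2 changes of -0.13 to -0.02, and Tspan31, Tspan11, Tspan1 and Tspan8 of 0.06 to 0.18. Tspan3 had the narrow range of 10.77 to 10.83 in TKI258 and 10.82 to 10.85 in DMSO cells, with an interval of -0.16 to 0.11. Tspan12, the co-receptor that strengthens Norrin signalling through Fzd4 and Lrp5, had 7.44, 7.65 and 7.79 in TKI258 and 7.73, 7.69 and 7.73 in DMSO cells, so the TKI258 arrays enclosed the DMSO arrays. Ndp, which encodes Norrin, Fzd4 and Lrp5 did not pass, at 0.11, 0.36 and 0.12. Fzd4 turned on single arrays, with 0.21 (adjusted p = 0.182) without DMSO replicate 2 and 0.49 (adjusted p = 0.0113) without DMSO replicate 1, and it also passed without dim genes (adjusted p = 0.0364) and with trend and robust eBayes (adjusted p = 0.0447). Tspan8, a tetraspanin of gastrointestinal and other carcinomas, had 3.46, 3.51 and 3.85 in TKI258 and 3.51, 3.44 and 3.32 in DMSO cells, where 1 TKI258 array lay above the rest. Over all 21 members that did not pass, log2 changes were -0.13 to 0.19, and their 95% intervals lay between -0.33 and 0.43, so larger changes lie outside the intervals.

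The uroplakins and photoreceptor tetraspanins did not pass in limma, and 0 of these 4 had an unadjusted p below 0.05. Upk1a had 5.43, 5.42 and 5.29 in TKI258 and 5.39, 5.40 and 5.44 in DMSO cells, and Upk1b, Prph2 and Rom1 had log2 changes of -0.11, 0.07 and 0.15. Groups overlapped in each of the 4. The uroplakins Upk2, Upk3a and Upk3b, with which Upk1a and Upk1b pair in the bladder lining, had log2 changes of 0.08 to 0.10. Of 5 photoreceptor markers 0 passed in limma, 0 had an unadjusted p below 0.05, and all 5 were below the median of all probe sets in both groups. Among the 4 members all but Upk1a also had a mean below it. Over all genes 27.0% passed, but only 4.85% of the dimmer ones, so 0 calls among such dim genes is near that share.

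The 4 pairs of members that lie next to each other in the genome, with at most 1 protein-coding gene between, were compared within arrays. Cd81 and Tspan32 on chromosome 7 have 0 protein-coding genes between them, and the difference of Cd81 and Tspan32 within arrays shifted by 0.76. Cd82 and Tspan18 on chromosome 2, with 0 genes between, shifted by 0.29, Tspan9 and Tspan11 on chromosome 6, also with 0 between, by 0.40, and Cd151 and Tspan4 on chromosome 7, with 1 gene between, by 0.33. The groups did not overlap in any of these 4 differences, each at the exact permutation p of 0.1. The pairs were chosen after the values were seen. The groups of Cd81, Cd82, Tspan9 and Cd151 did not overlap on their own, so these differences largely restate those changes. Tspan32 and Tspan18 were under the median signal in both groups, where a log2 change is measured less well.

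Proteins that tetraspanins bind or depend on were read as 8 lists of textbook partners, with 59 of 60 genes measured. Of these 14 rose and 12 fell, or 44.1% against 27.0% of all genes, with a median log2 change of 0.08. Of the 59, 47 had a mean above the median signal, and 53.2% of these passed, against 44.2% of all genes that bright. The lists were put together with earlier results of these data known.

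Of 7 integrin genes, 4 fell and Itgb4 alone rose, by 0.33 (adjusted p = 0.0116). Thus 71.4% were called, against 27.0% of all genes and 44.2% of the brighter ones. Itga6, whose product pairs with Cd151 at the basal side of epithelial cells, had 10.03, 10.18 and 10.03 in TKI258 cells, against 10.77, 10.77 and 10.65 in DMSO cells. All TKI258 arrays were lower, a log2 change of -0.65 (SE 0.07, adjusted p = 0.000163). Itga7, Itga5 and the laminin receptor gene Itga3 fell by 0.47, 0.47 and 0.45. Itgb1, the common beta chain, did not pass at -0.06 (adjusted p = 0.562).

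Of 9 receptor, ligand and adhesion partners, 3 fell and 6 did not pass (33.3% called, against 27.0% of all genes). The growth factor precursor genes Hbegf and Tgfa, whose products bind Cd9, fell by 1.95 and 1.18, and Cd44, the hyaluronan receptor gene, by 0.72 (adjusted p = 0.000129). Hbegf was 7.93, 7.88 and 8.04 in TKI258 cells, against 9.85, 9.86 and 9.97 in DMSO cells. The TKI258 arrays were all lower. Epcam, Met and Kit, which encode an adhesion protein and growth factor receptors, had log2 changes of -0.04, 0.003 and -0.06.

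Of 6 measured immunoglobulin-like partners and genes of the B cell complex with Cd81, Ptgfrn and Ifitm1 rose and 4 did not pass. In this list 33.3% were called, against 27.0% of all genes. Ptgfrn, which binds Cd9 and Cd81, had 10.22, 10.21 and 10.25 in TKI258 cells, against 9.80, 9.73 and 9.83 in DMSO cells, a log2 change of 0.44 (SE 0.06, adjusted p = 0.000706). The arrays did not overlap. Igsf8, its close relative, had a log2 change of 0.01, and Ifitm1, an interferon-inducible gene whose product joins Cd81 on leukocytes, of 0.38. The mean of Ifitm1 was under the median signal, and its log2 change was 0.24 (adjusted p = 0.0282 in limma) when its probe sets were averaged.

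Of 12 exosome and endosome genes, 3 rose, 1 fell and 8 did not pass (33.3% called, against 27.0% of all genes and 44.2% of the brighter ones). Timp1, a protease inhibitor that binds Cd63, had 8.23, 8.21 and 8.36 in TKI258 cells, against 9.65, 9.58 and 9.70 in DMSO cells, a log2 change of -1.38 (SE 0.07, adjusted p = 2.51e-06). The lysosomal membrane genes Lamp2 and Lamp1 rose by 0.63 and 0.31 and the membrane scaffold gene Flot1 by 0.47, whereas Cd63 itself did not pass. Pdcd6ip, Sdcbp and Tsg101, which act in vesicle budding, had log2 changes of -0.03, -0.03 and -0.13. Of 10 cytosolic links and palmitoyl transferases, 3 fell (the actin linker gene Msn by 0.31, the transferase gene Zdhhc3 by 0.30 and Prkca by 0.25) and Pi4kb and Pi4ka rose by 0.25 and 0.24. Calls thus made up 50%, against 27.0% of all genes and 44.2% of the brighter ones. Prkca, Pi4ka and Pi4kb lost their calls when single arrays were left out. For Prkca this was so without TKI258 replicate 2, TKI258 replicate 3 or any DMSO replicate, at adjusted p of 0.0693 to 0.109. Pi4ka lost its call without TKI258 replicate 1, TKI258 replicate 2, DMSO replicate 2 or DMSO replicate 3, at 0.102 to 0.131, and Pi4kb without DMSO replicate 2, at 0.0537.

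**Figure D3:**
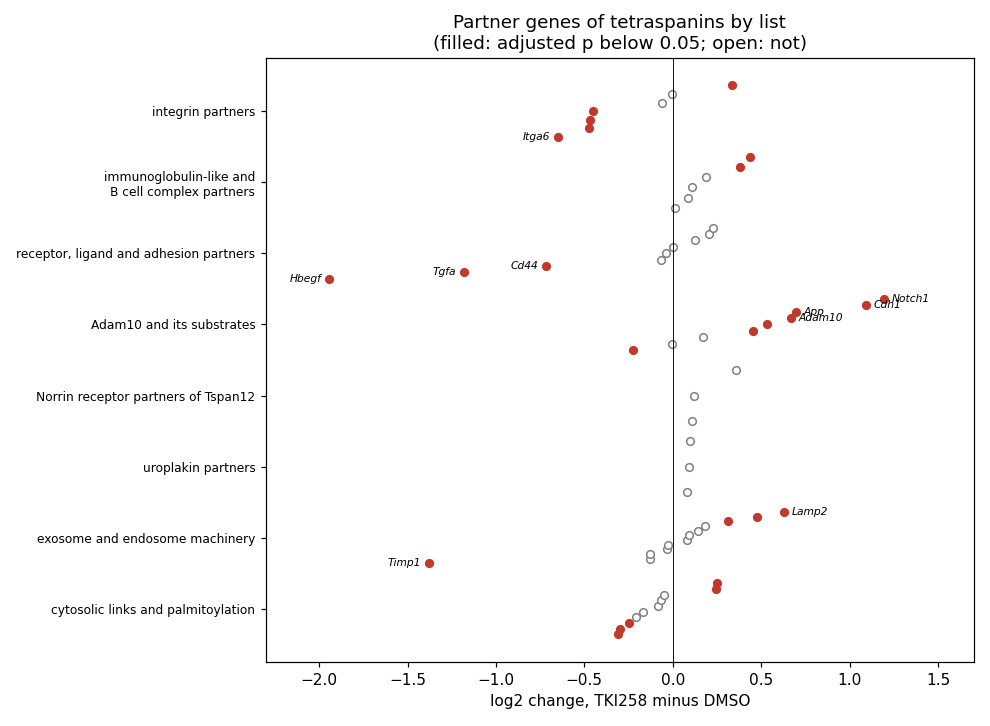
Log2 change (TKI258 minus DMSO, horizontal axis) of the measured partner genes in 8 lists, 1 point per gene, spread vertically within a list for legibility. Filled points passed an adjusted p of 0.05, and those beyond 0.6 are named. Among filled points, 4 of 5 integrin genes and all 3 receptor, ligand and adhesion genes lie on the lower side, and 6 of 7 in the Adam10 list on the higher side.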

How the data were processed

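Gene expression was measured on 6 Affymetrix arrays, 3 of TKI258 and 3 of DMSO cells, grouped by their titles. The authors deposited 1 value per probe set and array, taken as log2 signal from their range, as no source used here states the scale. RMA, affy and limma are named, with no version or order, per the submitters' processing notes. RMA as usually run equalises the distributions of arrays, so that a change common to every gene would not show.

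Gene names came from the 2016 annotation of the platform, and 21789 of 35557 with 1 symbol gave 19938 genes by their brightest probe set. The comparison of TKI258 against DMSO used limma 3.58.1 in R 4.3.3 (lmFit and eBayes on the log2 values over all genes, two-sided, Benjamini-Hochberg adjustment, threshold 0.05, no filter). SE and 95% intervals are those of the moderated fit. Values were given for Cd53, for up to 12 members past the threshold, for a fixed set of well known members and for the 3 partners per list with the smallest adjusted p. Other genes were named after their values were seen. Members and lists were chosen with earlier results of these data known. Alternatives were a replicate block, each array left out, median centring, renewed quantile normalization, a filter on dim genes, the mean of probe sets, trend and robust eBayes, an adjusted p of 0.01, treat against a fold of 1.2 and unmoderated variance. The number of arrays limits the precision.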

Additional observations from a re-analysis of the deposited data

How the results depend on the processing

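Over 15 alternatives, the count of tetraspanin genes that rose was 5 to 8. Cd9, the member called lower, passed in 14 of 15 and was lost against a fold of 1.2. Cd53 is left out of this account, since it was not tested, except in the next count. Against a fold of 1.2 limma's treat left 5 members higher and 1 lower, because it asks for more than a change from 0. The 1 lower is Cd53, whose value is not read as a test, and Cd9 was not called there. The same setting left 5 partner genes higher and 5 lower, against 14 and 12 as reported. In the other alternatives partner genes numbered 11 to 16 higher and 10 to 13 lower. With each array left out in turn, members higher numbered 6 to 7, partner genes higher 12 to 15 and partner genes lower 10 to 12. With the replicate number as a block, 7 members were higher, the same as without it, and Cd9 stayed lower. Partner genes were 14 higher and 11 lower, with Prkca not called. The leukocyte marker Lcp1 and the epithelial marker Cldn3 also lost their calls with the block. Deviations of same-numbered arrays from their group means correlated at 0.02, 0.05 and 0.15, and not every array correlated best with its own number, so the numbers were not taken to pair dishes. No change of direction occurred in a member or listed partner that passed. Calls of Tspan9, Tspan17, Cd81, Tspan13 and Tspan15 were kept in all 15. Centring on array medians moved the median change of all genes to -0.01 from 0.01 and left Cd82 uncalled.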

Other observations

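The L6 family and sarcospan resemble tetraspanins in spanning the membrane 4 times but belong to other families, and were looked at after the values were seen. Tm4sf1, an L6 gene abundant in carcinomas, had 11.13, 11.12 and 11.16 in TKI258 cells, against 11.56, 11.53 and 11.60 in DMSO cells, and fell by 0.43 (SE 0.06, adjusted p = 0.000692 in limma). Sspn, which encodes sarcospan of the dystrophin complex, had 8.89, 8.57 and 8.78 in TKI258 cells, against 7.90, 7.69 and 7.69 in DMSO cells, and rose by 0.99 (SE 0.10, adjusted p = 9.10e-05). Tm4sf4, Tm4sf5, Tm4sf19 and Tm4sf20 did not pass, with log2 changes of -0.06, 0.08, -0.02 and -0.000627.

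On the TKI258 arrays, replicate 3 held the highest value in 14 of 30 members and in 5 of the 7 that rose. Over all genes it was highest in 41.7%.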
